A study of Mus musculus with 23 samples.

Results

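The laminin and nidogen genes of the basement membrane were followed in 3 sorted epithelial populations of the mouse mammary gland, from before puberty through pregnancy to the end of breeding. The set was every probe set whose only annotated gene symbol was Lama1, Lama3, Lama4, Lama5, Lamb1, Lamb2, Lamb3, Lamc1 or Nid1, which gave 19 probe sets for 9 genes, out of 45037 probe sets that were no array controls and 34945 that named 1 gene. RNA was hybridised to 23 Affymetrix arrays. All mice were C57BL/6 females, with no genetic alteration or agent named in the labels. The populations were labelled mammary epithelial stem cells, luminal progenitor cells and mature luminal cells, each from virgins of 3 weeks, virgins of 9 weeks, pregnancy at day 10, pregnancy at day 16 and retired breeders, with mature luminal cells also from day 19 of pregnancy. Of these 16 groups, 7 had 2 arrays and 9 had 1 array. The labels give neither the age of the pregnant mice and retired breeders nor the surface markers of the sort, nor whether the arrays of a group came from separate animals, so p-values here measure the spread between arrays, which may be technical. In bulk RNA of this kind, fewer cells of a type and less RNA per cell cannot be told apart.

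Laminins are large secreted glycoproteins, each assembled inside the cell from an α, a β and a γ chain, that polymerise into a sheet under epithelia, around vessels and around muscle. Nidogen-1, the product of Nid1, binds laminin γ chains and type IV collagen and so links both networks. In the mammary gland the myoepithelial cells of the basal layer lie directly on the basement membrane and are known to make much of it, while luminal cells touch it less and depend on laminin signals through integrins and dystroglycan for milk protein synthesis. The α chain largely decides which receptors a laminin binds, and different α chains mark epithelial, muscle and vascular basement membranes.

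RefSeq promoter windows (GRCm38.p6) were held for 5 of the 9 genes, with 2 start sites for Lamb3. The windows of Lamb1 and Nid1 are shown because these genes had the lowest adjusted p of the set between stem and mature luminal cells, and that of Lama5 because it was the laminin whose arrays did not separate the cell types. Each run is the 250 bases upstream of the start site, 5′ to 3′ on the gene's strand, with motif matches in capitals: Lamb1 at chr12:31265043-31265292 (plus strand), Nid1 at chr13:13437352-13437601 (plus strand) and Lama5 at chr2:180225860-180226109 (minus strand).
Lamb1: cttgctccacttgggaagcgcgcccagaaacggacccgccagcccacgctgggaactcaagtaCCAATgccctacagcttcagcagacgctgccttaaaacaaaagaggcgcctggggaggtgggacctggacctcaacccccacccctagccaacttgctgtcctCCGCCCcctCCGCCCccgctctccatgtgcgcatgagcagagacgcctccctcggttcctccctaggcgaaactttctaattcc
Nid1: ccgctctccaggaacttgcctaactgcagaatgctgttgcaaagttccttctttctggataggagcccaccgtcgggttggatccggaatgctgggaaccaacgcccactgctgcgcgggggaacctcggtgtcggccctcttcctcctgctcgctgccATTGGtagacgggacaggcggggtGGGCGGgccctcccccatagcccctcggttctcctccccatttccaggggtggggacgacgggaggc
Lama5: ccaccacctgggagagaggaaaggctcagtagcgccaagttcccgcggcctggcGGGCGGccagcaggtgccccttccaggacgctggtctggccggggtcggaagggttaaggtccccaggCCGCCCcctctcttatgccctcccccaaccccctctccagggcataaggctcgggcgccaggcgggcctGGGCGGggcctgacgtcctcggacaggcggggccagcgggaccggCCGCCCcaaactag
Both strands were searched for the GC box (GGGCGG), the CCAAT box (CCAAT), the TATA box (TATAAA), the AP-1 site (TGANTCA), the STAT site (TTCNNNGAA) and the CArG box. The Lama5 window held 4 GC boxes, that of Lamb1 held 2 GC boxes and 1 CCAAT box, and that of Nid1 held 1 of each. Of all 32851 promoter windows of this length, 32.7% held a GC box and 33.9% a CCAAT box. The Lamb2 window held 1 STAT site, which 7.02% of all windows have, and neither Lamb3 window held any of these motifs. Base composition ran from 72.4% G and C upstream of Lama5 to 62% upstream of Lamb1 and 43.6% upstream of Lamb2, where the median of all windows was 52.4%. A match of letters is a description of the sequence and no evidence of binding.

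The populations carried the markers of their labels in part. The mean log2 value of 9 basal or myoepithelial markers ran from 9.86 to 12.84 on the 8 stem arrays, from 7.39 to 11.16 on the 7 luminal progenitor arrays and from 6.88 to 9.74 on the 8 mature luminal arrays. The luminal keratin Krt8 was high on all arrays, at 12.68 to 13.55 in stem cells and 13.66 to 13.83 in mature luminal cells. Markers of other cells were present: the mean of 10 endothelial markers reached 11.42 in stem cells, and the mean of the 7 measured fibroblast markers reached 10.93 in luminal progenitors but stayed between 4.02 and 7.66 in mature luminal cells. The array median lay between 4.51 and 5.47. Of the 19 member probe sets, 18 passed the filter on dim probe sets (above the array's 40th percentile on at least 2 arrays). Lamb1 probe set 1446180_at did not and was at 1.61 to 3.91 throughout.

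**Figure D1:**
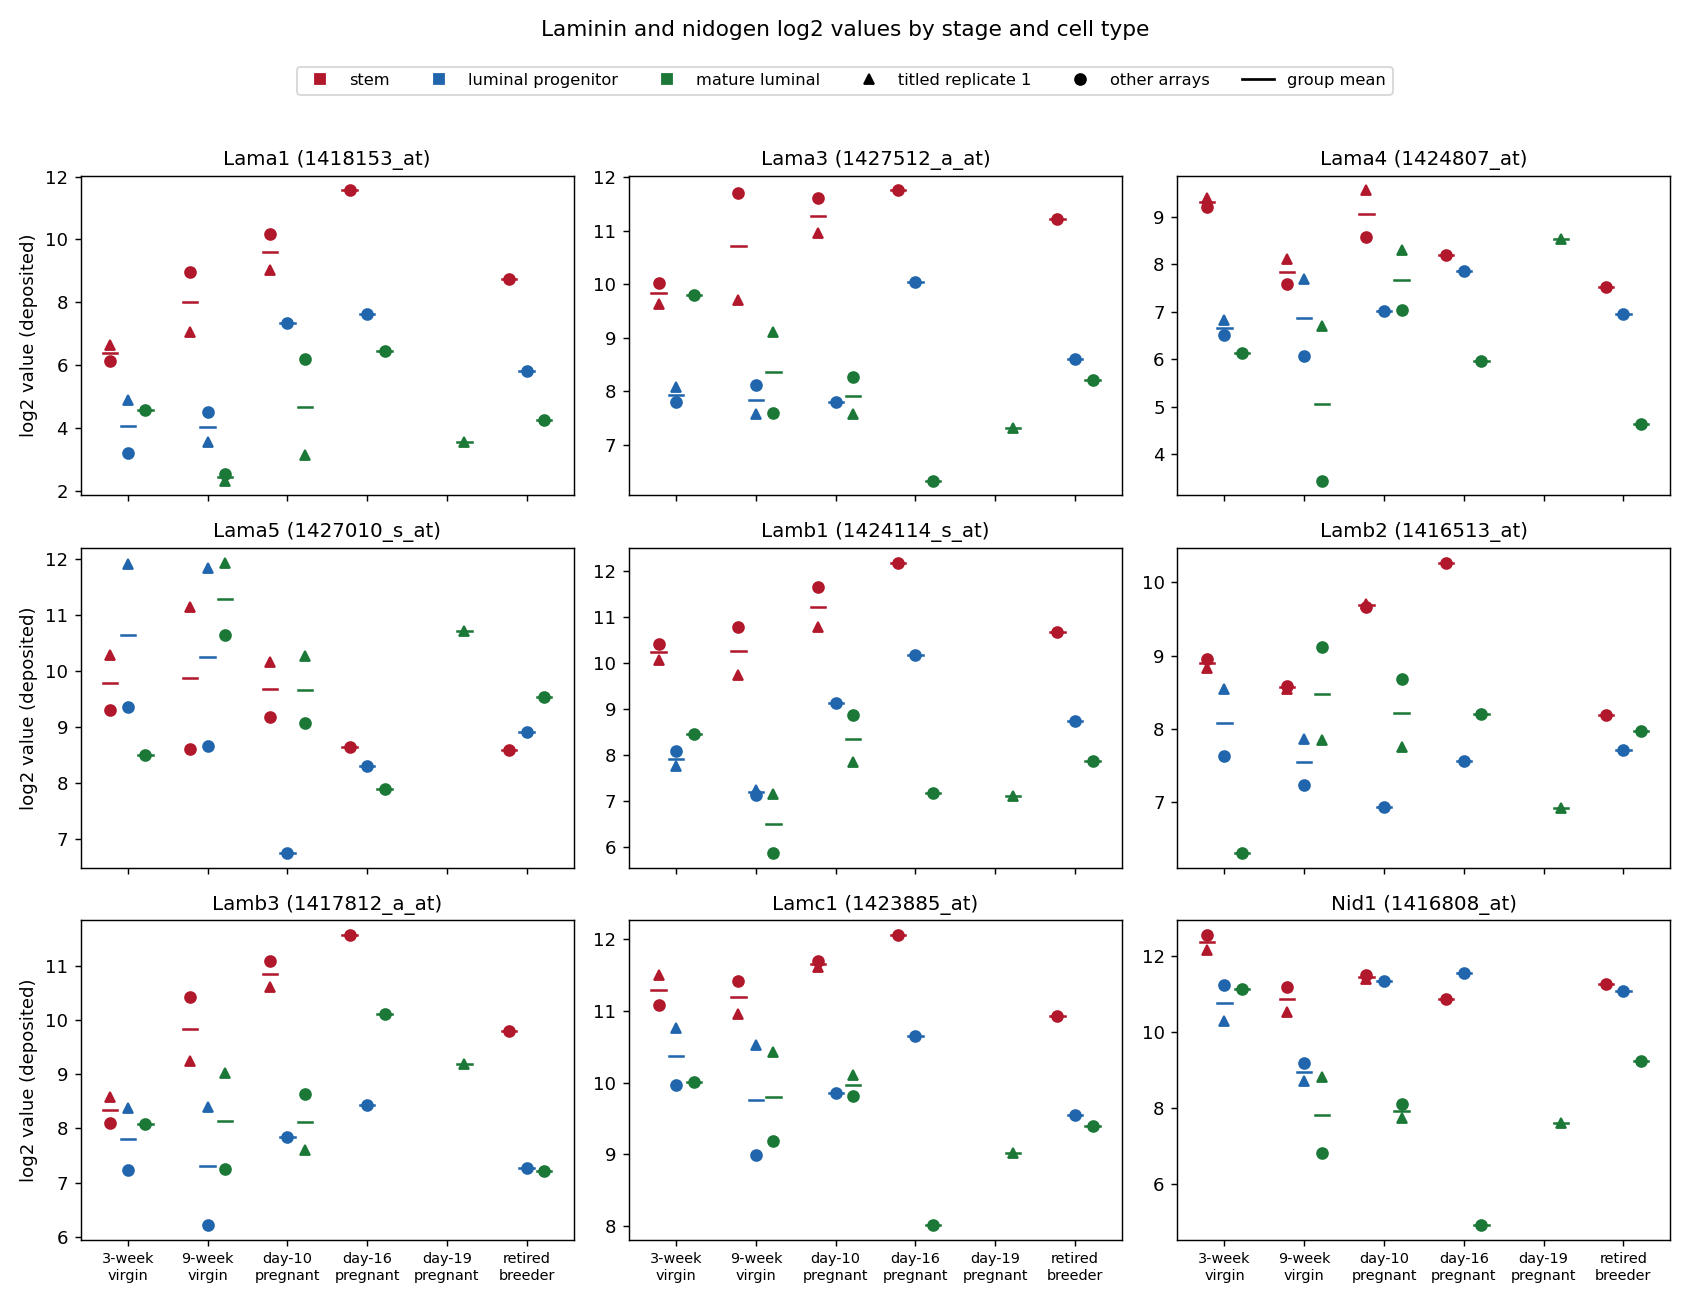
Deposited log2 values (vertical axes) of the probe set with the highest mean of each of the 9 genes, by stage (horizontal axis) and cell type (colour). Each symbol is 1 array, triangles are arrays titled replicate 1, and short lines are group means. Stem arrays of Lamb1 run from 9.73 to 12.18 and those of Lamc1 from 10.93 to 12.06, above every mature luminal array, while the Lama5 colours are mixed.

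Many laminin chains, though not Lama5, were lower in luminal cells than in stem cells. In luminal progenitors 7 of the 18 tested probe sets, from Lama1, Lama3, Lamb1, Lamb2, Lamb3 and Lamc1, were lower at an adjusted p under 0.05 and none was higher, while 1.83% of all 35303 probe sets tested were lower. In mature luminal cells 10 of 18 were lower and none higher, with Lama4 and Nid1 joining the same genes, while 4.3% of all probe sets were lower. The median difference of the 18 was -1.35 on the log2 scale in luminal progenitors, against -0.04 for all probe sets, and -1.95 in mature luminal cells, against 0.00. With the replicate number as a block the counts were 9 and 13, and no other comparison of cell types gained a member. Each difference is the mean over the 5 stages that have both populations. Basal markers were also lower, 6 of 9 in luminal progenitors and 7 of 9 in mature luminal cells, and so were endothelial markers, 4 and 6 of 10. Of the 7 measured fibroblast markers 4 were lower in mature luminal cells and none in luminal progenitors. Their part in the laminin differences was not tested.

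**Figure D2:**
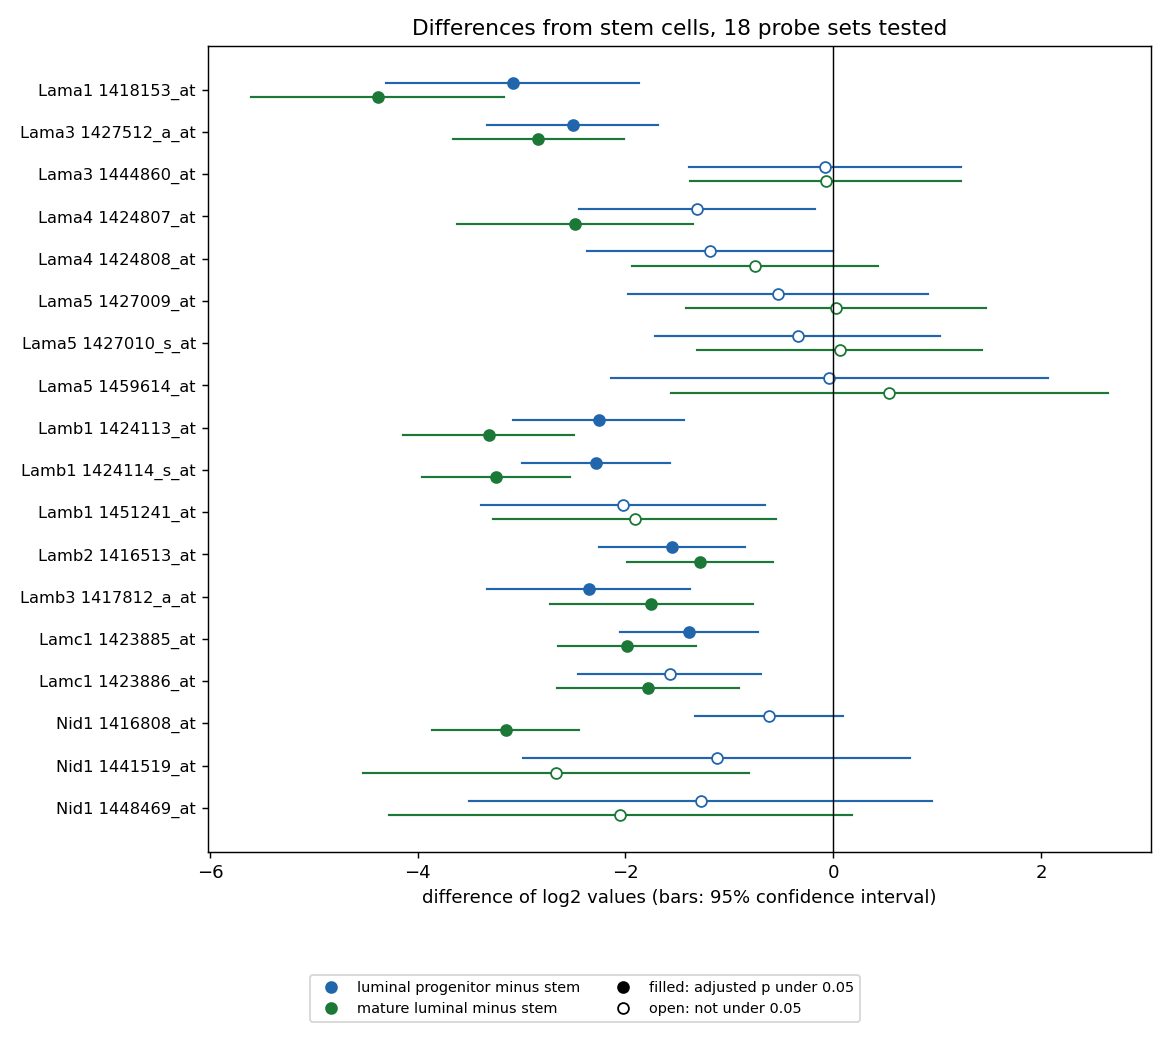
Differences of log2 values from stem cells (horizontal axis) for the 18 tested probe sets, in luminal progenitors (blue) and mature luminal cells (green), with 95% confidence intervals; filled points passed an adjusted p of 0.05. Lama1 shows the largest differences of the set, at -3.08 and -4.38, and the Lama5 points lie near 0.

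Among the α chains, Lama1 had the widest range. Lama1 encodes the α1 chain, typical of the early embryo and of a few adult epithelia. Its probe set 1418153_at read 6.14 and 6.63 on the 3-week stem arrays, 7.06 and 8.97 on the 9-week ones, 9.04 and 10.16 on the day-10 ones, 11.56 on the day-16 array and 8.74 on the retired breeder array. In luminal progenitors it read 3.21 and 4.90 at 3 weeks, 3.55 and 4.51 at 9 weeks, 7.33 at day 10, 7.64 at day 16 and 5.82 in retired breeders. In mature luminal cells it read 4.56 at 3 weeks, 2.32 and 2.53 at 9 weeks, 3.14 and 6.21 at day 10, 6.46 at day 16, 3.55 at day 19 and 4.26 in retired breeders. Stem cells were above both luminal populations at all 5 stages, although the ranges overlapped across stages. The pregnant luminal progenitors exceeded the 3-week stem arrays, and the mature luminal arrays at 6.21 and 6.46 exceeded the lower of these, at 6.14. The difference from stem cells was -3.08 ± 0.56 (standard error) in luminal progenitors (limma adjusted p = 0.0196), an 8.49-fold lower level. It was -4.38 ± 0.56 in mature luminal cells (limma adjusted p = 0.00124), a 20.9-fold lower level. On 6 of the 8 mature luminal arrays Lama1 was below the array's median value, where a log2 difference is least certain; with such values raised to the median the difference was -3.48 ± 0.44, 11.1-fold (limma adjusted p = 0.000495).

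Lama3 encodes the α3 chain of the epithelial laminin that anchors hemidesmosomes. Probe set 1427512_a_at ran from 9.63 to 11.75 (median 11.09) on the stem arrays, from 7.58 to 10.05 (median 8.08) on the luminal progenitor arrays and from 6.33 to 9.79 (median 7.91) on the mature luminal arrays. The highest luminal progenitor value was that of day 16, and the highest mature luminal value that of 3 weeks, which came within 0.04 of the stem mean of its stage. It was lower, at -2.51 ± 0.38 in luminal progenitors (limma adjusted p = 0.0114) and at -2.84 ± 0.38 in mature luminal cells (limma adjusted p = 0.00141), or 5.69-fold and 7.15-fold.

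Lama4 encodes the α4 chain of vascular and mesenchymal laminins. Its probe set 1424807_at ran from 7.51 to 9.55 on stem arrays, from 6.06 to 7.86 in luminal progenitors and from 3.44 to 8.53 in mature luminal cells, with the 3-week stem arrays at 9.21 and 9.39. Only the mature luminal difference passed, at -2.49 ± 0.52 (limma adjusted p = 0.0174), and the luminal progenitor difference was -1.31 ± 0.52 (limma adjusted p = 0.244). The other probe set, 1424808_at, was below the array median on 20 of 23 arrays and gave -0.76 ± 0.54 in mature luminal cells. Over the 23 arrays, which share libraries and cell types, Lama4 correlated with the endothelial marker mean at r = 0.36. With the basal marker mean r was 0.54 and with the type IV collagen mean 0.57. The endothelial r was 0.08 over the 8 stem arrays, 0.62 over the 7 luminal progenitor arrays and -0.27 over the 8 mature luminal arrays. In the same order the basal r was -0.52, 0.62 and 0.12, and the type IV collagen r -0.32, 0.66 and 0.14.

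Lama5 encodes the α5 chain, the most widespread α chain of adult epithelia. Probe set 1427010_s_at read 8.58 to 11.14 (median 9.24) in stem cells, 6.74 to 11.92 (median 8.90) in luminal progenitors and 7.88 to 11.94 (median 9.90) in mature luminal cells. The cell types overlapped almost wholly, and the values split instead by array title. In each of the 7 groups of 2 the array titled replicate 1 was higher, by 0.98 to 3.20, with a mean of 1.82. The mature luminal difference from stem cells was 0.06 ± 0.63 and that of luminal progenitors -0.34 ± 0.63, neither past the threshold (limma adjusted p = 0.978 and 0.856). Probe set 1427009_at followed it closely over the arrays (r = 0.99). The third, 1459614_at, was below the array median on all 23 arrays.

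The β chains were lower in luminal cells as well. Lamb1, the β1 chain of the laminins of many tissues, read 10.06 and 10.42 in 3-week stem cells on probe set 1424114_s_at, 9.73 and 10.78 at 9 weeks, 10.79 and 11.66 at day 10, 12.18 at day 16 and 10.68 in retired breeders. Luminal progenitors read 7.76 and 8.08, 7.24 and 7.14, 9.13, 10.18 and 8.73 at the same stages. Mature luminal cells read 8.46 at 3 weeks, 7.15 and 5.87 at 9 weeks, 7.85 and 8.86 at day 10, 7.17 at day 16, 7.12 at day 19 and 7.86 in retired breeders. Every stem array was above every mature luminal array, which 0.728% of all probe sets showed. The luminal progenitor array of day 16 was the only one of its type to reach the range of the stem arrays. Differences from stem cells were -2.29 ± 0.33 in luminal progenitors (limma adjusted p = 0.0109) and -3.25 ± 0.33 in mature luminal cells (limma adjusted p = 0.000526), or 4.88-fold and 9.48-fold. Probe set 1424113_at gave -2.26 and -3.32 and correlated with it at r = 0.99, whereas 1451241_at, below the array median on 17 of 23 arrays, gave -2.02 and -1.91 without passing. With the replicate block 1451241_at passed in both comparisons (limma adjusted p = 0.0345 and 0.0358).

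The other β chains were also lower in both luminal populations. Lamb2, the β2 chain of muscle, nerve and kidney laminins, ran from 8.19 to 10.27 in stem cells, from 6.94 to 8.55 in luminal progenitors and from 6.31 to 9.12 in mature luminal cells. Its differences from stem cells were -1.55 ± 0.32 (limma adjusted p = 0.0319) and -1.28 ± 0.32 (limma adjusted p = 0.0407). The Lamb2 calls were lost in 9 and 14 of the 23 fits that each left out 1 array, and on both sides of the title split. Lamb3, the β3 chain that pairs with the α3 chain in hemidesmosomal laminin, ran from 8.11 to 11.58 in stem cells, from 6.21 to 8.44 in luminal progenitors and from 7.21 to 10.12 in mature luminal cells. It was lower, at -2.36 ± 0.45 in luminal progenitors (limma adjusted p = 0.0235) and at -1.75 ± 0.45 in mature luminal cells (limma adjusted p = 0.0455). The mature luminal call of Lamb3 was lost in 14 of the 23 fits without 1 array, with quantile normalization and without the intensity trend. The mature luminal arrays of day 16 and day 19, at 10.12 and 9.20, stood above the 3-week stem arrays at 8.11 and 8.59.

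Lamc1 encodes the γ1 chain, shared by most laminins. Probe set 1423885_at ran from 10.93 to 12.06 in stem cells, from 8.99 to 10.76 in luminal progenitors and from 8.01 to 10.43 in mature luminal cells. All stem arrays were above all luminal arrays of either kind; 0.544% of all probe sets showed this against luminal progenitors. It was lower, at -1.39 ± 0.30 in luminal progenitors (limma adjusted p = 0.0379) and at -1.99 ± 0.30 in mature luminal cells (limma adjusted p = 0.00304). The luminal progenitor call was lost in 13 of the 23 fits without 1 array and without the intensity trend. Probe set 1423886_at gave -1.57 ± 0.40, which did not pass (limma adjusted p = 0.0704; 0.0147 with the replicate block), and -1.78 ± 0.40, which did (limma adjusted p = 0.0251) but was lost in 7 of the 23 fits without 1 array.

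Nid1 was lower in mature luminal cells than in stem cells. Probe set 1416808_at read 12.16 and 12.55 in 3-week stem cells, 10.53 and 11.19 at 9 weeks, 11.38 and 11.49 at day 10, 10.86 at day 16 and 11.27 in retired breeders. Luminal progenitors read 10.29 and 11.24 at 3 weeks, 8.72 and 9.19 at 9 weeks, 11.35 at day 10, 11.54 at day 16 and 11.08 in retired breeders. Mature luminal cells read 11.12 at 3 weeks, 8.81 and 6.83 at 9 weeks, 7.74 and 8.10 at day 10, 4.92 at day 16, 7.61 at day 19 and 9.23 in retired breeders. Stem cells and luminal progenitors overlapped, and the gap to mature luminal cells was widest at day 16. Mature luminal cells were lower than stem cells, at -3.15 ± 0.32 (limma adjusted p = 0.000526), an 8.90-fold difference, and luminal progenitors by -0.62 ± 0.32, which did not pass (limma adjusted p = 0.394). With the replicate block, probe sets 1441519_at and 1448469_at also passed between mature luminal and stem cells, at -2.88 and -2.29 (limma adjusted p = 0.00374 and 0.047); without it they gave -2.67 and -2.05. They were below the array median on 16 and 21 of 23 arrays, and 1448469_at was listed at 0 on 8; with values below the median raised to it the differences were -0.87 and -0.42 and did not pass (limma adjusted p = 0.337 and 0.628).

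Between the luminal populations, Nid1 1416808_at was the only member to pass, at -2.54 ± 0.34 in mature luminal cells against luminal progenitors (limma adjusted p = 0.0362), where 0.0482% of all probe sets were lower. Without both luminal progenitor arrays of pregnancy the difference was -0.88 (limma adjusted p = 1). In fits with additive terms for cell type and stage, it was -0.53 among arrays titled replicate 1, which hold no pregnant luminal progenitors, and -2.84 among the others. It passed in neither. It also failed to pass in 13 of the 23 fits that each left out 1 array. Those luminal progenitor arrays of day 10 and day 16 had the highest fibroblast marker means of all arrays, 10.66 and 10.93, with Nid1 at 11.35 and 11.54; the day-16 mature luminal array had a fibroblast mean of 4.15 and Nid1 at 4.92. Fibroblasts are a known source of nidogen-1, and Nid1 correlated with the fibroblast marker mean at r = 0.85 over the 23 arrays. This r was 0.93 over the 7 luminal progenitor, 0.82 over the 8 mature luminal and 0.27 over the 8 stem arrays. Over luminal progenitor and mature luminal arrays the endothelial marker mean gave 0.81 and 0.85, and the type IV collagen mean 0.70 and 0.91. These values describe arrays that share stages. The part of fibroblasts or other cells in the Nid1 difference was not tested.

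**Figure D3:**
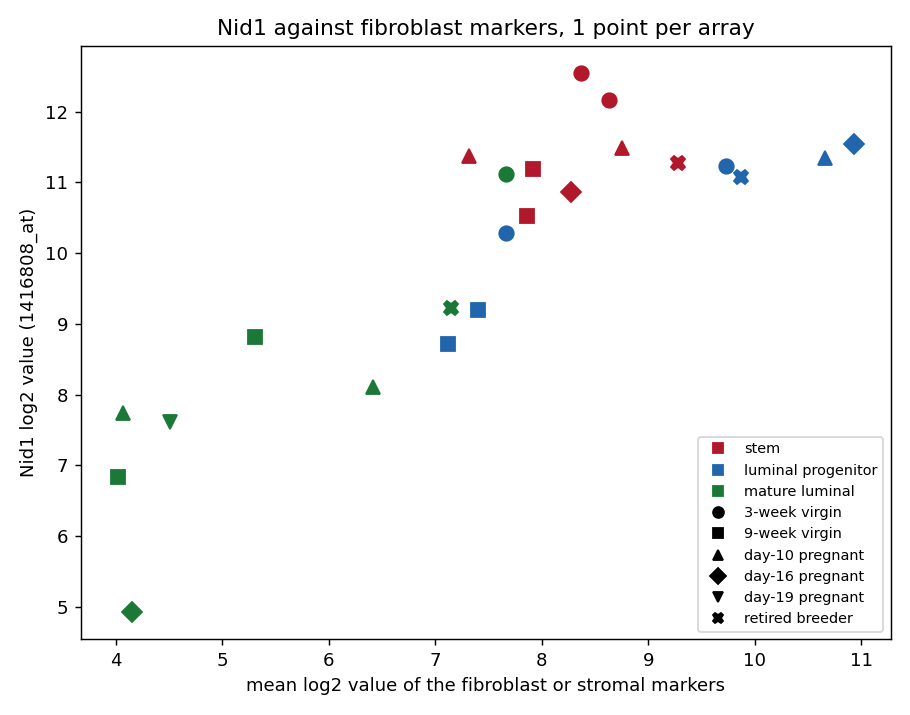
Nid1 log2 value of probe set 1416808_at (vertical axis) against the mean log2 value of the fibroblast or stromal markers (horizontal axis), 1 point per array, coloured by cell type and shaped by stage. The luminal progenitor arrays of pregnancy lie furthest right, at marker means of 10.66 and 10.93, and the day-16 mature luminal array lies lowest, at a Nid1 value of 4.92.

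The cell type differences were also fitted on either side of the title split, with additive terms for cell type and stage in place of 1 mean per group. The arrays titled replicate 1 include none of day 16 or retired breeders, and have all 3 cell types only at 9 weeks. Their counts are therefore not those of the same test on fewer arrays. Within the arrays titled replicate 1, 1 member was lower in luminal progenitors (Lamb1 1424114_s_at, -2.45) and 4 in mature luminal cells (Lama1, the Lamb1 probe sets 1424113_at and 1424114_s_at, and Nid1 1416808_at). Within the other arrays 9 and 11 were lower. In the fits below, leaving out the only array of a group also took its stage out of that comparison. Leaving out the day-10 luminal progenitor array brought the luminal progenitor count to 4. Leaving out that of day 16 as well also gave 4, from Lama1, Lama3 and Lamb1, and without the retired breeder stem and 3-week mature luminal arrays, which had the largest excess of 3′ over 5′ Gapdh signal, the mature luminal count was 6.

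Lama1 and Lamb1 were higher in pregnancy on the mean of all cell types, a result that depended on the arrays used. The mean of days 10 and 16 was set against the 9-week virgin, averaged over the 3 cell types. Lama1 was higher by 3.05 ± 0.56 (limma adjusted p = 0.0133), 8.31-fold. All 4 of its 9-week luminal arrays were below their array medians, and with values below the median raised to it the difference was 2.14 ± 0.44 (limma adjusted p = 0.0165), 4.40-fold. Lamb1 was higher by 1.72 ± 0.33 on 1424114_s_at (limma adjusted p = 0.0156) and 1.71 ± 0.38 on 1424113_at (limma adjusted p = 0.0306), 3.30-fold and 3.27-fold. The call of 1424113_at was lost in 7 of the 23 fits without 1 array, and that of Lama1 in 1. These 3 of 18 probe sets passed, all higher, while 1.85% of all probe sets were higher. Basal markers were higher too, 3 of 9, and 1 of 7 fibroblast markers. The basal mean was 7.39 and 7.91 on the 9-week luminal progenitor arrays but 10.21 and 11.16 on those of day 10 and day 16. Lama1 and Lamb1 correlated with that mean at r = 0.92 and 0.96 over the 23 arrays. Within luminal progenitors the median pregnancy difference was 3.15 for basal, 3.19 for fibroblast and 3.43 for leukocyte markers. For pericyte and endothelial markers it was 2.5 and 1.39. Over the luminal progenitor arrays the fibroblast mean correlated with Lamb1 at r = 0.92 and with Lama1 at 0.71. The part of any of these cells in the rise was not tested. Without both luminal progenitor arrays of pregnancy the comparison held only stem and mature luminal cells, and no member passed: Lama1 then gave 2.85 (limma adjusted p = 0.0612) and Lamb1 1424114_s_at 1.35 (limma adjusted p = 0.133). The 14 numbered arrays of the groups of 2 hold no luminal progenitors of pregnancy and no day-16 array. With the replicate block on only these, the comparison was day 10 against 9 weeks in stem and mature luminal cells, and so not the same contrast. Neither gene passed there: Lama1 gave 1.92 ± 0.63 and Lamb1 1.41 ± 0.37 on 1424114_s_at and 1.39 ± 0.45 on 1424113_at (limma adjusted p = 0.14, 0.0659 and 0.131).

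Within single cell types the pregnancy differences of Lama1 and Lamb1 had the same sign in all 3, and no member passed. Lama1 gave 2.56 ± 0.95 in stem cells, 3.46 ± 1.02 in luminal progenitors and 3.14 ± 0.95 in mature luminal cells (limma adjusted p = 0.441, 0.265 and 0.19). Lamb1 1424114_s_at gave 1.45 ± 0.56, 2.46 ± 0.60 and 1.25 ± 0.56 (limma adjusted p = 0.455, 0.188 and 0.499). In these comparisons 0.0765%, 0.0453% and 1.08% of all probe sets passed in either direction. At an unadjusted p under 0.05, 3384, 3959 and 3361 of all probe sets did. The difference between the pregnancy effect of mature luminal and of stem cells passed for none of the 18 (0.00283% of all probe sets passed; 1628 had an unadjusted p under 0.05), and was 0.58 ± 1.35 for Lama1 and -0.20 ± 0.79 for Lamb1 1424114_s_at. The day-19 mature luminal array, which entered no pregnancy comparison, had Lama1 at 3.55 and Lamb1 1424114_s_at at 7.12.

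With the replicate number as a block over all arrays, 6 of 18 members passed in pregnancy. Lama4 1424807_at was then higher by 1.42 ± 0.38 (limma adjusted p = 0.0322), as it was with the block on numbered groups of 2, at day 10 in stem and mature luminal cells only (1.91 ± 0.46, limma adjusted p = 0.0476), and Lama5 was lower, at -1.44 ± 0.36 on 1427009_at and at -1.38 ± 0.31 on 1427010_s_at (limma adjusted p = 0.0241 and 0.0148). Without the block these differences were 1.03 ± 0.53, -2.06 ± 0.67 and -1.99 ± 0.63, and did not pass. Lama4 1424807_at and these Lama5 probe sets were higher on the array titled replicate 1 in 7 of 7 groups of 2, and only 1 of the pregnant arrays of stem cells, and none of luminal progenitors, bore that title. In mature luminal cells alone Lama5 1427010_s_at was lower in pregnancy by -2.07 ± 0.51 with the block (limma adjusted p = 0.0385) and -2.52 ± 1.07 without it (limma adjusted p = 0.458). Among arrays titled replicate 1, the pregnancy comparison covered day 10 in stem and mature luminal cells only. No member passed there, with Lama1 at 1.68 and Lamb1 1424114_s_at at 0.92. The arrays without that title also hold luminal progenitors of pregnancy and a later day, so the contrast was not the same. Among them both of these probe sets passed, at 2.89 and 1.93 (limma adjusted p = 0.0234 and 0.0496).

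**Figure D4:**
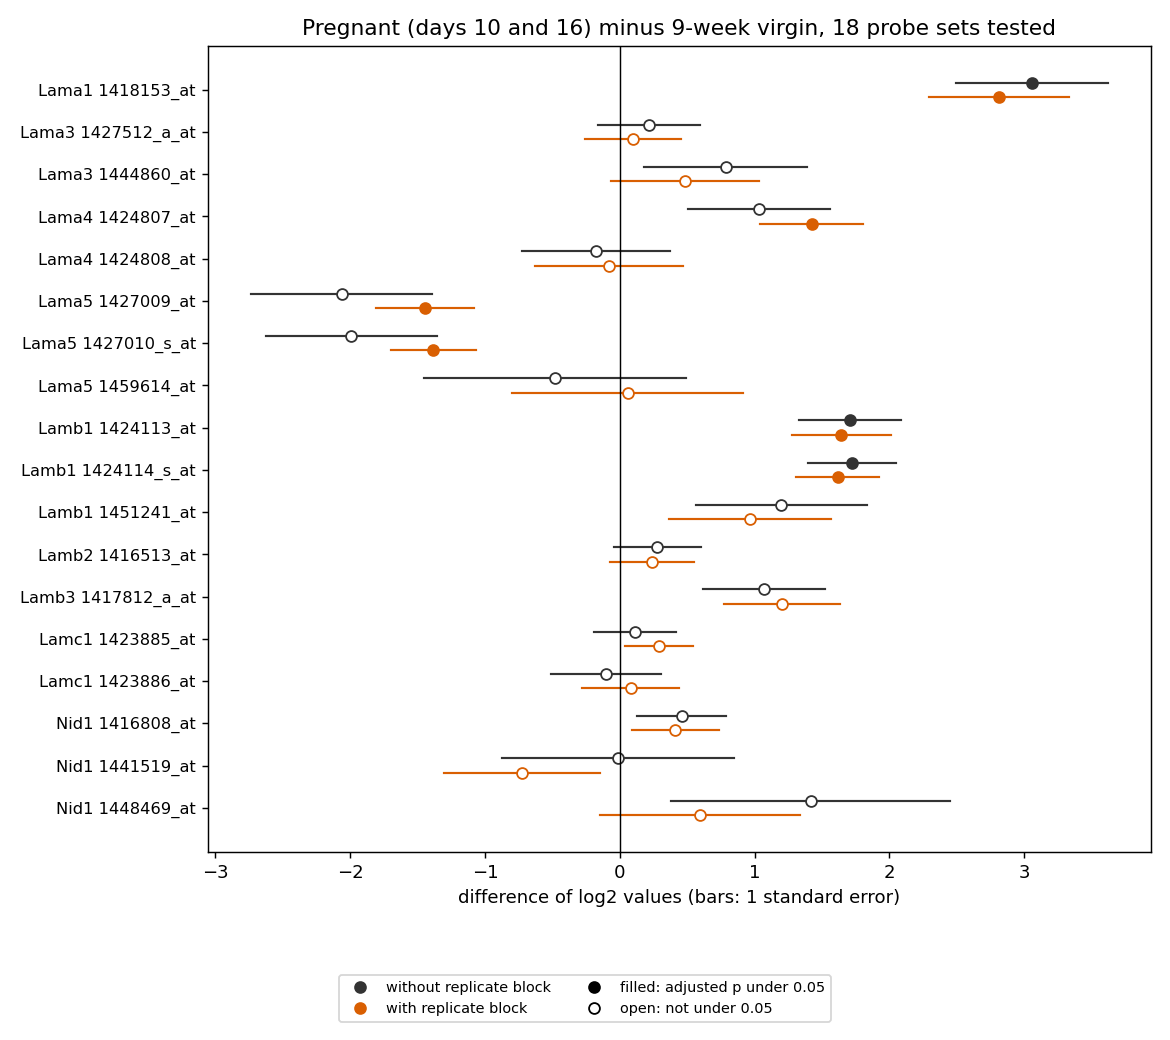
Pregnant (mean of days 10 and 16) minus 9-week virgin differences of log2 values (horizontal axis) for the 18 tested probe sets, without (grey) and with (orange) the replicate number as a block; bars are 1 standard error and filled points passed an adjusted p of 0.05. Lama1 lies at 3.05 without and 2.81 with the block, and the Lama5 points move from about -2.06 and -1.99 to -1.44 and -1.38.

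In virgins of 3 weeks, no member passed against 9 weeks, where 0.00283% of all probe sets did (3551 at an unadjusted p under 0.05). Nid1 1416808_at came closest. It was higher at 3 weeks in all 3 cell types, with 11.12 against 6.83 and 8.81 in mature luminal cells, and the mean difference was 2.20 ± 0.37 (limma adjusted p = 0.0821). With the replicate block it was 2.18 ± 0.35 and passed (limma adjusted p = 0.0127). In the additive fits it was 1.35 among arrays titled replicate 1, which hold no 3-week mature luminal array, and 2.57 among the others, passing in neither. The 11.12 is from the single 3-week mature luminal array, which is 1 of the 2 with the largest Gapdh excess. Without both, which left only stem cells and luminal progenitors in the comparison, the difference was 1.65 (limma adjusted p = 0.683). Marker lists of other cells had positive median differences at the same stage, 2.18 for pericyte, 1.90 for leukocyte, 1.77 for endothelial and 1.57 for fibroblast markers, against 0.14 for all probe sets, with no gene of these lists passing. Their part in the Nid1 difference was not tested.

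In retired breeders, no member passed against the 9-week virgin, where 0.00283% of all probe sets did (2670 at an unadjusted p under 0.05). The largest differences were -1.88 ± 0.86 for Lama5 1427009_at, -1.47 ± 0.81 for Lama5 1427010_s_at, 1.45 ± 0.72 for Lama1, and 1.31 ± 0.42 for Nid1 1416808_at. Each retired breeder group had 1 array, assumed to vary like the groups of 2.

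With the 16 groups ordered by level, most neighbouring groups of each gene lay closer together than its pooled SD of duplicate arrays. The day-16 stem group, which is 1 array, was highest for Lama1, Lama3, Lamb1, Lamb2, Lamb3 and Lamc1. The 3-week stem group was highest for Lama4 and Nid1, and the 9-week mature luminal group for Lama5. The 5 stem groups were the top 5 for Lamb1 and Lamc1, while 1 stem group was among the top 5 for Lama5. Of the 15 steps between neighbouring groups, all were smaller than the gene's pooled SD of duplicate arrays for Lama4, Lama5 and Lamb3. For Lamb1, Lamb2 and Nid1, 4 steps were larger, for Lama3 2 and for Lama1 and Lamc1 1. The lowest Nid1 groups, day-19 and day-16 mature luminal cells with 1 array each, stood at 7.61 and 4.92, against a pooled SD of 0.64.

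The Lama3 probe sets gave different readings. Probe set 1444860_at was below the array median on all 23 arrays, at 0.09 to 4.55, whereas 1427512_a_at was above it on all 23, and over the arrays they correlated at r = 0.18. On 1444860_at stem cells ranged from 0.09 to 4.55, luminal progenitors from 2.93 to 3.94 and mature luminal cells from 1.30 to 4.21. Its differences from stem cells were -0.08 ± 0.60 and -0.07 ± 0.60. The cell type difference of 1427512_a_at minus that of 1444860_at was -2.43 in luminal progenitors and -2.77 in mature luminal cells, in 5 of 5 stages (2-sided exact permutation of cell types within stage, p = 0.00231 each, the smallest that 432 relabellings can give, 0.00347 adjusted over the 3 pairs). As 1444860_at was dim everywhere, this test mostly restates the difference of 1427512_a_at and does not show that 1444860_at measured a transcript. Between the luminal populations the value was -0.34 (exact permutation p = 0.727). Within the arrays not titled replicate 1 the values were -2.28 and -2.77, and the exact permutation test could go no lower than an adjusted p of 0.0938 there. The annotation names both as Lama3; which transcripts each probe set reads was not analysed here.

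**Figure D5:**
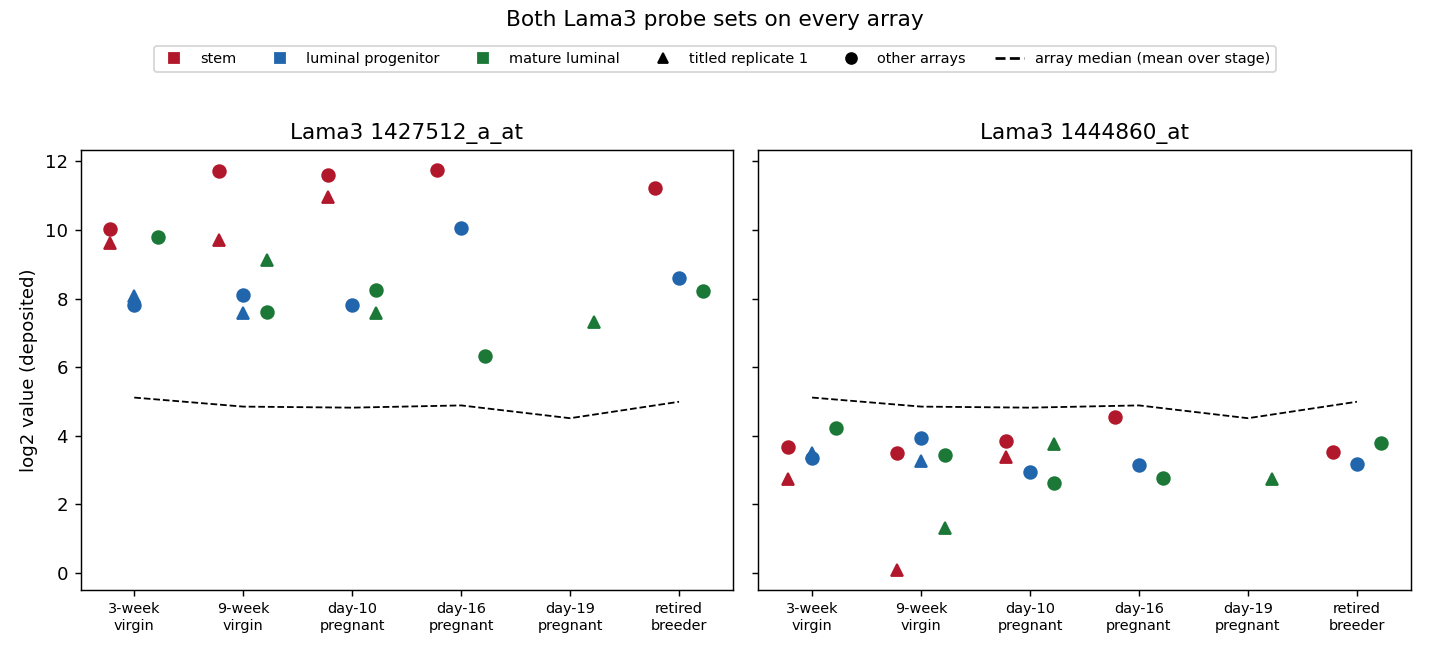
Log2 values of both Lama3 probe sets (1 panel each, same vertical axis) by stage (horizontal axis) and cell type (colour), 1 symbol per array, with the array median as a dashed line. On probe set 1427512_a_at the stem arrays lie at 9.63 to 11.75, with the highest luminal arrays reaching 10.05, and 1444860_at stays under the dashed line, at no more than 4.55.

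Other genes of the basement membrane were counted from lists of related function. Of 6 type IV collagen chains, which form the network that nidogen joins to laminin, 2 were lower in luminal progenitors and 3 in mature luminal cells: Col4a1 by -2.11 ± 0.32 and -3.19 ± 0.32, Col4a2 by -2.37 ± 0.42 and -3.59 ± 0.42, and Col4a3 only in mature luminal cells, by -1.52 ± 0.38. Of 18 other basement membrane components 6 and 10 were lower, with Fbln2 (fibulin-2, a laminin and nidogen binder) at -2.88 and -4.28, Col18a1 at -3.21 and -3.71, and Hspg2 (perlecan) at -2.47 and -2.99. None of these lists had a higher member in either comparison. The median difference over those 18 was -0.99 and -1.92. Of the laminins and nidogens outside the set, Lamc3 was lower in mature luminal cells by -2.04 ± 0.41 and higher in pregnancy by 1.68 ± 0.41, and Lama2 and Nid2 passed in neither.

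Laminin receptors and anchoring proteins were counted in the same way. Of 13 laminin receptor genes 2 were lower in each comparison: Itga3, the α3 integrin subunit, by -1.78 ± 0.22 and -1.49 ± 0.22, with the tetraspanin Cd151 in luminal progenitors and Itga1 in mature luminal cells (-4.02 ± 0.83). Of 6 hemidesmosome genes Col17a1 was lower in both, by -3.94 ± 0.71 and -3.58 ± 0.71, and Cd151 in luminal progenitors. Of 8 tested genes for collagen folding, laminin or nidogen processing, 3 and 4 were lower, among them the chaperone Serpinh1 (-1.82 and -2.43) and the hydroxylase P4ha1 (-1.83 and -2.32). In pregnancy Serpinh1 was higher by 1.90 ± 0.30 and the hemidesmosomal linker Dst lower, at -1.41 ± 0.22, each the only gene of its list to pass, and no type IV collagen or laminin receptor passed.

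Members varied together to different degrees. Over the 23 arrays Lama1 and Lamb1 correlated at r = 0.91, Lama3 and Lamb1 at 0.88, and Lama3 and Lamc1 at 0.85, and after removing the means of the cell types at 0.77, 0.64 and 0.57. Lama5 ran against Lama1, with r = -0.49 and -0.67 after that step. The step leaves the title split in: Lama5 1427010_s_at was higher on the array titled replicate 1 in 7 of 7 groups of 2, and Lama1 in 2 of 7. The part of this split in the negative r was not tested. Among 15369 other genes, the nearest in pattern were Hs3st3a1, Myh11 and Spon2 for Lama1 (r = 0.95 to 0.96), Moxd1, Sdk2 and Palld for Lama3 (0.94 to 0.97), and Pcsk5, Tagln and Pcdh18 for Lamb1 (0.95 to 0.96). For Lama4 they were Map4k5, Ccn2 and Slc20a1, for Lama5 Epn2, Tbc1d1 and Mprip, and for Lamc1 Col18a1, Ereg and Zfp608. For Nid1 they were Pmp22, Maf and Fstl1 (0.92 to 0.94), and the nearest genes of Lamb2 and Lamb3 reached only 0.84 (Pkd1) and 0.88 (Ctnnal1). These correlations are over arrays that share cell types and libraries.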

How the data were processed

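Polyadenylated RNA was labelled with biotin for Affymetrix hybridisation, per the labels' protocols. The authors' deposited values are log2 expression values per probe set, from 0 to 14.28; the software, background correction and scaling behind them are not given in the sources used here. Genes were named through the platform annotation: 34945 probe sets had 1 symbol, 932 several and 9160 none. Of 45037 probe sets that were no array controls, 35303 above an array's 40th percentile on at least 2 arrays were tested with limma 3.58.1 (R 4.3.3) on all 23 arrays, 1 mean per group of stage and cell type, with an intensity trend and Benjamini-Hochberg adjustment over all of them (residual degrees of freedom 7, prior 4.88). On simulated data this test found 31 of 100 changes of size 2 (log2) between mature luminal and stem cells and 71 of 100 of size 3. These were the only changes planted among 35303 probe sets, with independent noise. The rates need not hold for the real arrays, where more probe sets were called and same-numbered arrays deviated together. Python 3.11.15 with SciPy 1.17.1 served for the rest. Groups of 1 array were assumed to vary like groups of 2, and no value was imputed.

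Same-numbered arrays deviated together: in the 7 groups with numbers 1 and 2 in their titles, all 21 pairwise correlations of deviations were over 0.1 (0.29 to 0.61, median 0.43), so the replicate number was fitted as a block as an alternative. The labels do not say what the number stands for. Every member probe set is accounted for; up to 4 genes with the smallest p are named from other lists, and the 3 nearest genes for each member. The members, lists and tests were chosen with earlier results of these data known. Number of arrays limits the precision. Alternatives were the normalization, the filter, raised low values, no intensity trend, 1 probe set per gene, only the groups compared, the block, each side of the title split and leaving out each array. The limma fits on each side of the title split had additive terms for cell type and stage. Leaving out the only array of a group also removed its stage from that cell type comparison, or its cell type or day from the stage comparison. Lists held markers of basal, luminal, luminal progenitor, endothelial, fibroblast, pericyte, leukocyte, adipocyte, erythrocyte and Schwann cells.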

Additional observations from a re-analysis of the deposited data

Results flagged for a closer look

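A few members moved one way in every array of one cell type and the other way in every array of another, between the same stages. In each case the difference was not tested. Each side held only 1 or 2 arrays, where full separation is easily met without any change. The share of all probe sets that moved so was not computed, so these cases are no result about the members. At 3 weeks minus 9 weeks, Lama1 1418153_at differed by -1.63 in stem and 2.13 in mature luminal arrays, Lamb2 by 0.33 and -2.17, and Lamc1 1423886_at by 0.46 and -1.40. The 3-week mature luminal group had 1 array, one of the arrays with the largest excess of 3′ over 5′ Gapdh signal. For retired breeder minus 9-week virgin, Lama3 1444860_at differed by 1.73 in stem cells, -0.42 in luminal progenitors and 1.41 in mature luminal cells, on a probe set below the array median on all 23 arrays. No group had the 4 arrays needed to look for outlying arrays.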

How the results depend on the processing

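Of the 18 member probe sets, 7 were lower in luminal progenitors against stem cells, and 4 to 8 were without each array in turn, 4 without both luminal progenitor arrays of pregnancy and 1 within the arrays titled replicate 1. In mature luminal cells 10 were lower, with a range of 7 to 12 without each array, 6 without the pair of arrays with the largest Gapdh excess and 4 within the arrays titled replicate 1. Between the luminal populations the count was 1, and 0 without the intensity trend, with only the groups compared, with the block on numbered groups of 2, on either side of the title split and without both luminal progenitor arrays of pregnancy; it was 0 to 1 without each array. In pregnancy 3 passed, and 6 with the replicate block. With the block on numbered groups of 2, 1 passed (Lama4 1424807_at, none of the 3). Within the arrays titled replicate 1 the count was 0, for day 10 in stem and mature luminal cells only. It was 0 without both luminal progenitor arrays of pregnancy, and 1 to 4 without each array (1 without the first 9-week luminal progenitor array). At 3 weeks 0 passed, and 1 with dim values set to the array median, with 1 probe set per gene and with the replicate block. In mature luminal cells in pregnancy 0 passed, and 1 with the block. The replicate block changed no other call of a member than those printed with the results.

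The Lama3 contrast between probe sets kept its direction: -2.96 to -2.29 in luminal progenitors and -3.19 to -2.40 in mature luminal cells without each array. It was -2.28 and -2.77 within the arrays not titled replicate 1, where the design cannot pass the threshold. Between the luminal populations it was -0.34, 0.17 with the block, and -0.70 to 0.41 without each array. Of 752 values for the 21 called differences under other settings, 626 passed, 126 did not and 0 changed sign. Dropping both pregnant luminal progenitor arrays and dropping the arrays with the largest Gapdh excess were chosen after seeing the data. The cause of these changes was not tested. Counts over all probe sets moved more, mostly with the block: over all alternatives, 776 lay between 323 and 3523 for luminal progenitors, 1796 between 328 and 4663 for mature luminal cells, 18 between 0 and 167 between the luminal populations, 1376 between 373 and 4188 for pregnancy, and 1 between 0 and 519 for 3 weeks. By cell type (stem, luminal progenitor, mature luminal) the pregnancy counts of 27, 16 and 383 ran from 0 to 359, 0 to 311 and 61 to 1472, the count of 1 for retired breeders from 0 to 3, and that of 1 for the difference of pregnancy effects from 0 to 82. Within-side fits gave no value for single cell types. The number of arrays limits what could be seen: 9 groups had 1.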

Other observations

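Of 8 luminal markers 2 were higher in luminal progenitors and 3 in mature luminal cells than in stem cells, and of 5 luminal progenitor markers 1 was higher in luminal progenitors and 1 lower in mature luminal cells. Of 6 pericyte markers 1 was lower in mature luminal cells, with a mean log2 level of 6.04 to 9.08 on stem arrays, 4.97 to 8.34 in luminal progenitors and 4.39 to 8.38 in mature luminal cells. The leukocyte list had a level of 3.66 to 8.42 over all arrays and no call among its 6 tested genes. Of 3 adipocyte markers tested 1 was lower in mature luminal cells, and neither the 2 Schwann markers nor the 1 erythrocyte marker tested passed there. The erythrocyte level stayed at or under 4.09 on every array.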
